A study of Mus musculus with 9 samples.

Results

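The 10 genes described here mark the steps by which a neural stem cell becomes a young neuron. Sox2 and Nes mark stem and progenitor cells, Eomes marks intermediate progenitors, Mki67 marks dividing cells, and Neurod1, Igfbpl1, Dcx, Sox11, Sox4 and Tubb3 mark neuroblasts and immature neurons. They were chosen by name as neurogenesis genes, are 10 of the 48709 genes in the exon count files, and all have an entry there. In NeuN-sorted hippocampal nuclei, 7 of the 10 had enough reads for a test and 3 (Nes, Eomes and Igfbpl1) did not. The clearest differences were in caffeine-treated against vehicle-treated Tg4-42 mice, where Tubb3, Dcx and Sox11 were at 0.662, 0.712 and 0.775 times the vehicle level, with no overlap between the 3 libraries of each group. Such groups without overlap were found for 23.0% of all 17361 tested genes in this comparison. None of the 10 genes passed the threshold of an adjusted p under 0.05 in any of the 3 comparisons.

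In the adult hippocampus, new granule cells arise from radial glia-like stem cells at the inner edge of the dentate gyrus. These give rise to dividing intermediate progenitors, then to neuroblasts and immature neurons, which lose the early markers as they mature and are wired into the granule cell layer. NeuN, the protein used for the sort, is a nuclear protein of neurons that is largely absent from stem cells and dividing progenitors and appears as neurons mature.

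All mice were on the C57BL/6J background and were 6 months old at the end of the experiment. WT mice and Tg4-42 mice received tap water (vehicle), and another group of Tg4-42 mice received caffeine in the drinking water at 300 mg/l for 4 months from 2 months of age. The sample labels give the treatment of the caffeine group only, so that of the other 2 groups was taken from the study's methods. Tg4-42 mice are homozygous for human Aβ4-42 fused to the signal peptide of mouse thyrotropin-releasing hormone and driven by the mouse Thy1 promoter, and no caffeine-treated WT group was sequenced here. Each group had 3 libraries of nuclei sorted for NeuN from frozen hippocampus. The labels speak of 6 mice per group and the methods of 3, so whether a library holds 1 mouse or a pool is not known, and the spread between libraries may be partly technical. The labels do not give the sex behind a library. The study's methods describe dissected, frozen hippocampi for the males among the Tg4-42 mice, while the frozen tissue described for the females had first been fixed.

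The libraries held between 9342945 and 16376922 exon reads, so that a level of 3 reads corresponded to between 0.190 and 0.325 counts per 1000000 reads (CPM). Trh and Thy1, whose sequences are part of the transgene, stood at a mean of 2.76 and 86.1 CPM in WT mice, at 58.5 and 539 CPM in Tg4-42 mice and at 55.2 and 583 CPM in caffeine-treated Tg4-42 mice. In every group, replicates 1 and 2 were sequenced on lane 6 and replicate 3 on lane 7. Rbfox3, which encodes NeuN, was at 89.3 to 116 CPM in WT mice, 99.6 to 117 CPM in Tg4-42 mice and 126 to 148 CPM in caffeine-treated Tg4-42 mice. It was thus highest in the 3 caffeine-treated libraries, without passing the threshold (log2 fold change 0.28 against vehicle, edgeR adjusted p = 0.291, and 0.33 against WT, adjusted p = 0.236), and its part in the results below was not tested. Fewer cells of a type and less RNA per cell cannot be told apart in sorted bulk nuclei, for any gene below.

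Compared per length of exon, the 10 genes spread over several orders of magnitude. Tubb3 was the highest, with a median of 58.4 CPM per kilobase of exon over the 9 libraries, above 96.4% of all tested genes. Neurod1 followed with 18.3, and its lowest library (16.4) lay above the highest Dcx library (16.2). Dcx (12.6) and Sox11 (11.3) overlapped, with Dcx the higher in 5 of 9 libraries, so their order is not resolved. Sox4 (1.36), Sox2 (0.972) and Mki67 (0.496) came next, each overlapping the range of its neighbour but higher than it in 8 of 9 libraries. The Sox4 value is uncertain, because 54.6% of its exon bases are shared with another gene, Gm26735. Igfbpl1 (0.0483), Nes (0.0115) and Eomes (0) were at the bottom. The first 5 places thus went to genes listed above as markers of neuroblasts and immature neurons. Those listed for stem cells and dividing cells took the lower ones, apart from Igfbpl1. Tubb3 is also kept by mature neurons and Neurod1 by granule neurons, so the order ranks genes and not cell stages.

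**Figure D1:**
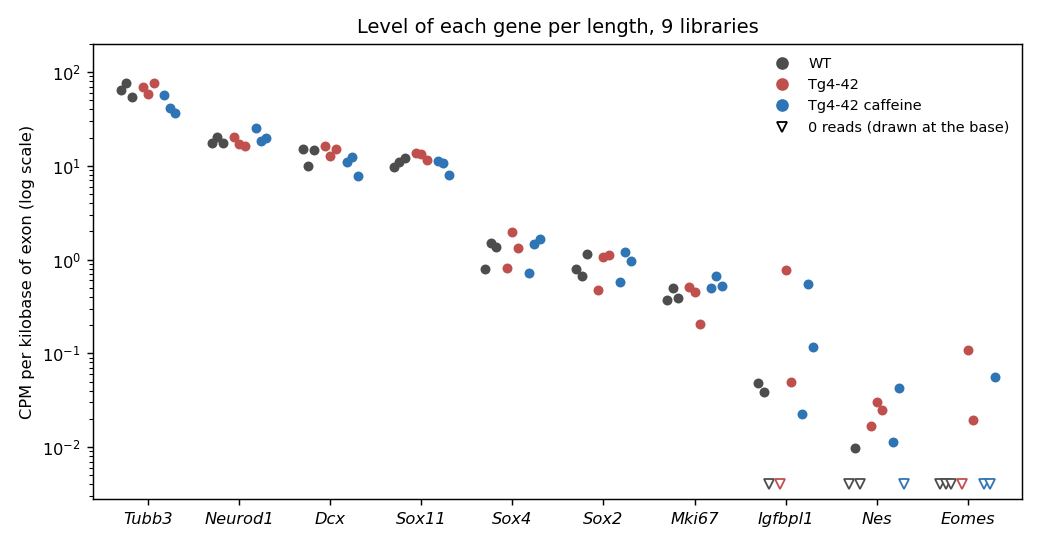
CPM per kilobase of merged exon (log axis) of the 10 genes, ordered by their median over the 9 libraries. Each point is a library coloured by group, and open triangles at the base are libraries with 0 reads. The 4 genes at the left lie above all other genes in every library, and Nes and Eomes have 0 reads in 3 and 6 libraries.

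Sox2 and Nes, the stem and progenitor markers, showed no difference that could be resolved. Sox2 (chr3:34650405-34652461 in mm10, 1 exon, plus strand), an HMG-box transcription factor that maintains neural stem cells and is also made by astrocytes, was at 1.65, 1.39 and 2.39 CPM in WT libraries 1 to 3. It was at 0.974, 2.18 and 2.33 CPM in Tg4-42 mice and at 1.18, 2.49 and 2.0 CPM in caffeine-treated Tg4-42 mice. The 3 ranges overlapped, with the lowest library of each group at 1.39 CPM or less. Its log2 fold change was 0.02 with caffeine against vehicle in Tg4-42 mice (95% CI -0.83 to 0.87), an interval wide enough to hold a difference of 0.562 to 1.82 times. Against WT, the log2 fold change in Tg4-42 mice was 0.04 (95% CI -0.80 to 0.89).

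Nes (chr3:87971078-87980451, plus strand), which encodes the intermediate filament nestin, was at the limit of detection. The WT libraries held 0, 1 and 0 Nes reads, the Tg4-42 libraries 1, 3 and 2, and the caffeine-treated libraries 1, 4 and 0. Summed over a group, this was 1 read in WT mice, 6 in Tg4-42 mice and 5 in caffeine-treated mice. The exact Poisson 95% intervals, which cover counting error only, reached from 0.000575 to 0.126 CPM, from 0.0591 to 0.350 CPM and from 0.0395 to 0.284 CPM. In 7 of the 9 libraries Nes was below 3 reads. A two-sided exact permutation test on log2(CPM + 0.5) gave p = 0.1 for Tg4-42 against WT mice, the smallest value that 3 against 3 libraries can give, and p = 0.6 for caffeine against vehicle.

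Eomes (chr9:118478212-118486132, plus strand), the T-box factor of intermediate progenitors also called Tbr2, was not detected in WT mice. All 3 WT libraries held 0 reads. A floor of 3 reads over the group would be 0.0681 CPM, and the exact Poisson 95% interval reached 0.0838 CPM. The Tg4-42 libraries held 0, 7 and 1 reads and the caffeine-treated libraries 0, 0 and 3. The 8 reads of the Tg4-42 group thus came almost entirely from replicate 2, and the exact permutation tests gave p = 0.4 against WT mice and p = 0.7 for caffeine against vehicle.

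Mki67 (chr7:135689784-135716361, minus strand), which encodes the Ki-67 protein of dividing cells, was detected in every library, with 26 to 98 reads. Its level was 3.77, 4.99 and 3.94 CPM in the WT libraries, 5.19, 4.56 and 2.09 CPM in the Tg4-42 libraries and 5.07, 6.78 and 5.30 CPM in the caffeine-treated libraries. The lowest caffeine-treated library lay just above the highest WT library, and Tg4-42 replicate 1 lay within the caffeine-treated range. With caffeine, the log2 fold change was 0.54 against vehicle-treated Tg4-42 mice (SE 0.30, adjusted p = 0.379 in edgeR) and 0.43 against WT mice (adjusted p = 0.504). Of other cell cycle genes, Ccna2, a cyclin, had 40 to 72 reads in a library, Mcm2, a subunit of the replicative helicase, 44 to 96 and Pcna, the sliding clamp of DNA replication, 193 to 346. Top2a, a topoisomerase of dividing cells, had at most 6 reads in a library and Cdk1, the kinase that drives entry into mitosis, at most 5.

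Neurod1 (chr2:79452521-79456751, minus strand), a basic helix-loop-helix factor of neuroblasts that granule neurons keep expressing, was at 48.3, 56.1 and 47.5 CPM in WT mice. It was at 55.1, 47.1 and 44.9 CPM in Tg4-42 mice and at 69.8, 50.0 and 54.0 CPM in caffeine-treated mice. Caffeine-treated replicate 1 was the highest of the 9 libraries, and the other 2 caffeine-treated libraries lay among the vehicle-treated ones. The log2 fold change with caffeine against vehicle was 0.24 (95% CI -0.06 to 0.55, adjusted p = 0.417 in edgeR). Of its exon bases, 13% are shared with the exons of Cerkl, which lies on the same strand, or of Gm26755, which lies on the opposite one.

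Igfbpl1 (chr4:45809468-45826923, minus strand), an insulin-like growth factor binding protein-like gene of young neurons, was carried by 2 libraries. The WT libraries held 2, 2 and 0 reads, the Tg4-42 libraries 0, 39 and 2, and the caffeine-treated libraries 1, 26 and 5. Replicate 2 of both transgenic groups was thus far above the other 7 libraries, which held at most 5 reads. Summed, the WT group held 4 reads, the Tg4-42 group 41 and the caffeine-treated group 32, but exact permutation tests over libraries gave p = 0.5 for Tg4-42 against WT mice, p = 0.9 for caffeine against vehicle and p = 0.3 for caffeine against WT. In the edgeR fit with no filter on low counts, Igfbpl1 had a log2 fold change of 3.28 (adjusted p = 0.00544) for Tg4-42 against WT mice and of 2.95 (adjusted p = 0.0073) for caffeine-treated Tg4-42 against WT mice. Of the reads behind these values, 39 of 41 and 26 of 32 came from replicate 2.

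The same 2 libraries shared a few other genes. By a rule chosen after the values were seen (at least 15 reads in both libraries and at most 8 in each of the other 7), 8 genes including Igfbpl1 had this pattern. Zic5, a zinc finger transcription factor, had 61 reads in Tg4-42 replicate 2, 38 in caffeine-treated replicate 2 and at most 7 elsewhere. Glp1r, the receptor for glucagon-like peptide 1, had 33, 23 and at most 4. Otx2, a homeobox factor of the developing forebrain and midbrain, had 20, 21 and at most 7. The others were Adra2b, Calcr, Lbhd2 and a gene without a symbol. With both libraries removed, an alternative added after the counts were seen, none of the 7 tested genes was called in any comparison. None was called with all 9 libraries either, so this cannot show whether the 2 libraries matter for them.

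Dcx, Sox11, Sox4 and Tubb3 are the later markers, and 3 of them were lower with caffeine. Dcx (chrX:143855842-143933311, minus strand) encodes doublecortin, a microtubule-binding protein of migrating neuroblasts and immature neurons. It was at 190, 127 and 186 CPM in the WT libraries, at 205, 160 and 192 CPM in the Tg4-42 libraries and at 141, 157 and 97.9 CPM in the caffeine-treated libraries. Every caffeine-treated library lay below every vehicle-treated Tg4-42 library, although caffeine-treated replicate 2 (157) and Tg4-42 replicate 2 (160) nearly touched, and WT replicate 2 lay within the caffeine-treated range. The log2 fold change for caffeine against vehicle was -0.49 (SE 0.18, 95% CI -0.88 to -0.10), with an edgeR adjusted p of 0.192. For Tg4-42 against WT mice it was 0.14 (95% CI -0.25 to 0.53), and for caffeine-treated Tg4-42 against WT mice it was -0.35 (95% CI -0.74 to 0.04, adjusted p = 0.382).

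Sox11 (chr12:27334264-27342574, minus strand, 1 exon) is a SoxC transcription factor that activates the neuronal programme, Dcx and Tubb3 among its known targets. It was at 80.6, 91.0 and 101 CPM in WT mice, at 113, 112 and 96.0 CPM in Tg4-42 mice and at 93.8, 89.3 and 65.9 CPM in caffeine-treated mice. The highest caffeine-treated library (93.8) lay just under the lowest vehicle-treated Tg4-42 library (96.0), and the WT range overlapped both. The log2 fold change for caffeine against vehicle was -0.37 (SE 0.14, 95% CI -0.67 to -0.06, edgeR adjusted p = 0.208). Against WT mice it was 0.24 in Tg4-42 mice and -0.13 in caffeine-treated mice, with intervals that include 0.

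Sox4 (chr13:28948919-28953713, minus strand, 1 exon), the other SoxC factor of young neurons, did not show this pattern. Its level was 3.77, 7.26 and 6.53 CPM in WT mice, 3.90, 9.43 and 6.42 CPM in Tg4-42 mice and 3.46, 7.05 and 7.92 CPM in caffeine-treated mice. Replicate 1 was the lowest library of each group, and the 3 groups covered nearly the same range. The log2 fold change with caffeine against vehicle was -0.12 (95% CI -0.88 to 0.63). The values for Sox4 are uncertain, because 54.6% of its exon bases are also exon of Gm26735 on the opposite strand, which is listed with 0 reads in all 9 libraries, and how reads over both genes were counted is not given in the sources used here.

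Tubb3 (chr8:123411424-123422015, plus strand) encodes class III beta-tubulin, which appears early in neuronal differentiation and is kept by mature neurons. It was at 120, 145 and 103 CPM in WT mice, at 131, 109 and 144 CPM in Tg4-42 mice and at 108, 77.8 and 68.5 CPM in caffeine-treated mice. The caffeine-treated libraries all lay below the vehicle-treated Tg4-42 libraries, with replicate 1 (108) close under Tg4-42 replicate 2 (109) and inside the WT range. The log2 fold change for caffeine against vehicle was -0.59 (SE 0.17, 95% CI -0.96 to -0.23), with an edgeR adjusted p of 0.107. This was the lowest adjusted p of the 7 genes, and it passed the threshold in DESeq2 (0.0373), in edgeR with no filter on low counts (0.00384) and without caffeine-treated replicate 1 (0.0308). For caffeine-treated Tg4-42 against WT mice, the log2 fold change was -0.53 (95% CI -0.90 to -0.16, adjusted p = 0.161), and -0.74 (adjusted p = 0.0395) without caffeine-treated replicate 1.

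**Figure D2:**
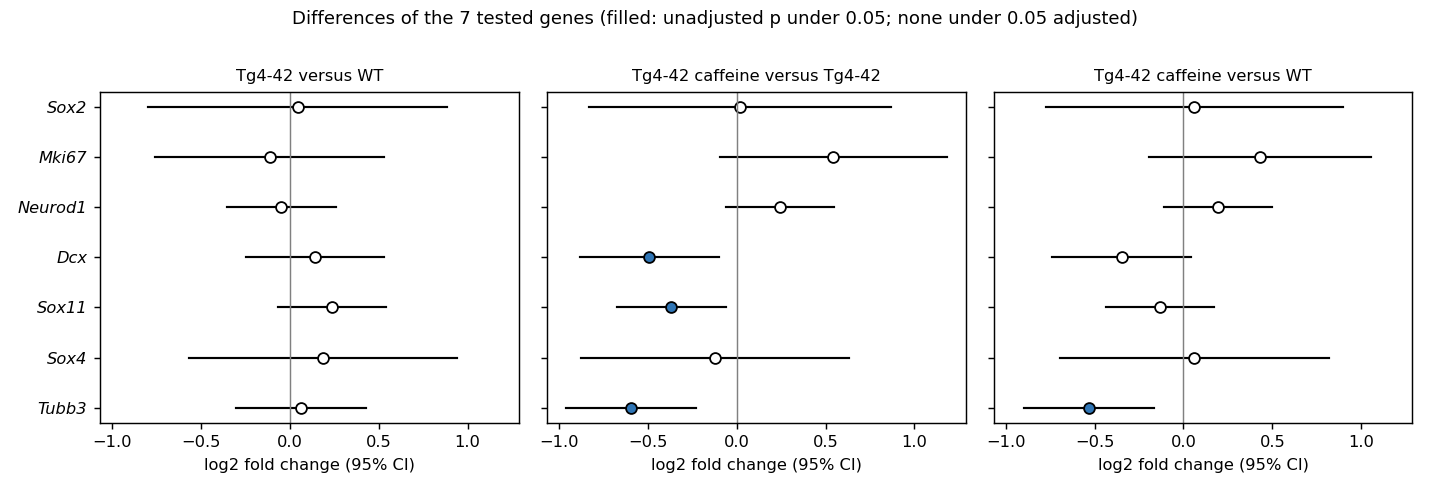
Log2 fold change of the 7 tested genes in the 3 comparisons, with the 95% CI as a line. Filled points have an unadjusted p under 0.05. With caffeine against vehicle, Tubb3 (-0.59), Dcx (-0.49) and Sox11 (-0.37) have intervals below 0, and in Tg4-42 against WT mice every interval includes 0.

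Counted together, 0 of the 7 tested genes were called in Tg4-42 against WT mice, where 0.0979% of all 17361 tested genes were called. With caffeine against vehicle in Tg4-42 mice 0 of 7 were called (0.881% of all tested genes), and in caffeine-treated Tg4-42 against WT mice 0 of 7 (0.415%). At an unadjusted p under 0.05 in edgeR, the counts were 0 of 7 in Tg4-42 against WT mice (2.74% of all tested genes), 3 of 7 with caffeine against vehicle (17.0%, or 9.82% for lower values alone, the direction of all 3) and 1 of 7, Tubb3, in caffeine-treated Tg4-42 against WT mice (15.4%). Groups that did not overlap were found for 0 of 7 genes in Tg4-42 against WT mice (6.73% of all tested genes) and for 3 of 7 with caffeine against vehicle (23.0%). In caffeine-treated Tg4-42 against WT mice it was 1 of 7 (18.8%), Mki67, which was higher in all 3 caffeine-treated libraries. The comparisons share their libraries, so the values against vehicle and against WT are not independent of each other. All 7 had at least 9 reads in every library.

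The size of the caffeine difference depended on the libraries of lane 7. On lane 6 alone, with 2 libraries a group, the log2 fold changes against vehicle were -0.28 for Dcx, -0.28 for Sox11 and -0.35 for Tubb3, all in the same direction and each with an edgeR adjusted p of at least 0.888. Without caffeine-treated replicate 3, which was the lowest of the 9 libraries for each of these genes, they were -0.32, -0.23 and -0.46. Without caffeine-treated replicate 2 the Dcx value was -0.64. With lane as a covariate, the values were -0.50, -0.37 and -0.61.

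The starts of 4 genes are shown, picked with their values known. With caffeine against vehicle, the fold changes of Dcx, Tubb3 and Sox11 were below 0 and that of Neurod1 above 0. None of these differences passed the threshold, and the contrast between the genes was not tested. The stretches differ in length, so motif matches cannot be compared between genes. RefSeq windows of the GRCm38.p6 build, which run from 250 bases before the annotated start, were found for 9 of the 10 genes. Each sequence ends before the first annotated exon base of any gene or at the start. For Sox11 and Neurod1 the letters end at 27342719 and 79456786, short of the gene starts given above at 27342574 and 79456751. The bases next to those starts are not shown. The strands are as given above, and the windows are chrX:143933312-143933469, chr8:123411303-123411423, chr12:27342719-27342968 and chr2:79456786-79456886. Capitals mark a match to 1 of 4 searched motifs on either strand, ACAAAG and ACAATG (letters bound by Sox factors) or CAGATG and CAGCTG (E-boxes, the sites of factors such as Neurod1).
Dcx: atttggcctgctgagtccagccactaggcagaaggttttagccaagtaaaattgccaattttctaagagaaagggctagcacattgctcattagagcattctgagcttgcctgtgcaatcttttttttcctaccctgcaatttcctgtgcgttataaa
Tubb3: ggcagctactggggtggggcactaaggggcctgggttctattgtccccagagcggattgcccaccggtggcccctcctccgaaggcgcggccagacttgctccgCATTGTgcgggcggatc
Sox11: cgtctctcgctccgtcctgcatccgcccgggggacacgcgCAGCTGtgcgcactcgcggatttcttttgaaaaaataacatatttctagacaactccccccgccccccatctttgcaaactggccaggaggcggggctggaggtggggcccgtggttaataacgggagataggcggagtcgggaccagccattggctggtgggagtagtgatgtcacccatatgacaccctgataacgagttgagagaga
Neurod1: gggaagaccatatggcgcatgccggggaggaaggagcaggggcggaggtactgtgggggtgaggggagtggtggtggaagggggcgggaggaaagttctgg
Tubb3 holds ACAATG once, read on the other strand as CATTGT, which 5.54% of 32851 promoter windows hold in a stretch of the same length and place. Sox11 holds CAGCTG once, as do 13% of windows. None of the 4 motifs is in the letters shown for Dcx and Neurod1. A match is a description of these letters and not a binding site.

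Over the 9 libraries, the genes most like Dcx in log2 CPM were Mir124-2hg (Pearson r = 0.976), a host transcript of the neuronal microRNA miR-124, then Cnksr3 (0.974), Gm4876 (0.958), A830019L24Rik (0.951) and Pidd1 (0.95). Those most like Tubb3 were Tuba1a (0.990), an alpha-tubulin of growing neurons, then Zc2hc1a (0.972), Tnfaip1 (0.969), Rangap1 (0.968) and Slitrk4 (0.967). These are correlations across libraries that share group, lane and depth, picked as the highest of 17361, and are given as a description. Cnksr3, Gm4876, A830019L24Rik and Pidd1 had means of only 0.783, 1.88, 1.22 and 1.39 CPM, so their r rests on few reads.

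Other genes of the same steps were read from 3 lists. Of 16 genes of radial glia-like stem cells, 15 were tested and 0 were called with caffeine against vehicle, with 9 fold changes above 0 and 6 below. The median log2 fold change was 0.02, beside -0.01 over all tested genes. The smallest p belonged to Lpar1, a lysophosphatidic acid receptor made by stem cells and by oligodendrocytes, at a mean of 5.22 CPM with caffeine and 10.6 CPM with vehicle (log2 fold change -1.01, edgeR adjusted p = 0.111). Tfap2c was listed with 0 reads in all 9 libraries. Of 14 genes of the cell cycle and of dividing progenitors, 10 were tested and 0 were called, with 6 fold changes above 0 and 4 below (median 0.11). Mcm6, a subunit of the helicase that opens DNA for replication, had the smallest p, at 33.8 CPM with caffeine and 20.7 CPM with vehicle (log2 fold change 0.71, adjusted p = 0.0979). Mcm2, of the same helicase, was at a mean of 3.24 CPM with caffeine and 5.61 CPM with vehicle, with the 3 caffeine-treated libraries below the others (log2 fold change -0.78, edgeR adjusted p = 0.14). For Mcm6 the 3 caffeine-treated libraries lay above those with vehicle and those of WT mice. With caffeine against vehicle, groups did not overlap for 23.0% of all tested genes.

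Of 27 further genes of neuroblasts and immature neurons, 24 were tested with caffeine against vehicle, 1 rose and 1 fell, where 0.881% of all tested genes were called. Bhlhe22, a helix-loop-helix factor of excitatory neurons, rose from 15.4, 21.6 and 17.7 CPM in the vehicle-treated libraries to 32.4, 29.3 and 31.8 CPM (log2 fold change 0.77, edgeR adjusted p = 0.0469). Sema3c, a secreted guidance cue for axons and migrating neurons, fell from 39.7, 38.1 and 45.6 CPM to 29.7, 26.1 and 24.1 CPM (log2 fold change -0.63, adjusted p = 0.047). Both calls sit close to the threshold, and each was kept in 1 of the 6 fits that left out a library of the comparison, Bhlhe22 without Tg4-42 replicate 2 and Sema3c without caffeine-treated replicate 1, with adjusted p up to 0.278 and 0.304 in the others. Neither was called with lane as a covariate (adjusted p = 0.0668 for Bhlhe22 and 0.0689 for Sema3c in edgeR) or on lane 6 alone (0.817 and 0.868). Of the 24 fold changes, 18 were below 0 and 6 above, with a median of -0.26, beside 8940 below and 8420 above over all 17361 tested genes. At an unadjusted p under 0.05 in edgeR, 9 of 24 were lower, beside 9.82% of all tested genes, and 3 of 24 higher, beside 7.15%. Groups did not overlap for 4 of the 24 that were lower and 4 that were higher, beside 23.0% of all tested genes in either direction. Some genes of the list were at high levels in every group, such as Dclk1 (means of 747 to 764 CPM) and Ncam1 (561 to 607 CPM). Which cells their reads came from was not tested. Neurod2, a helix-loop-helix factor related to Neurod1 and kept by mature excitatory neurons, rose in caffeine-treated Tg4-42 against WT mice, from 34.2, 47.8 and 47.8 CPM to 66.4, 72.0 and 100 CPM (log2 fold change 0.88, adjusted p = 0.0408), a call kept in 1 of 6 fits, that without caffeine-treated replicate 1, and lost on lane 6 alone (adjusted p = 0.370). No gene of the 3 lists was called in Tg4-42 against WT mice, where 49 were tested and 0 had an unadjusted p under 0.05 in edgeR.

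**Figure D3:**
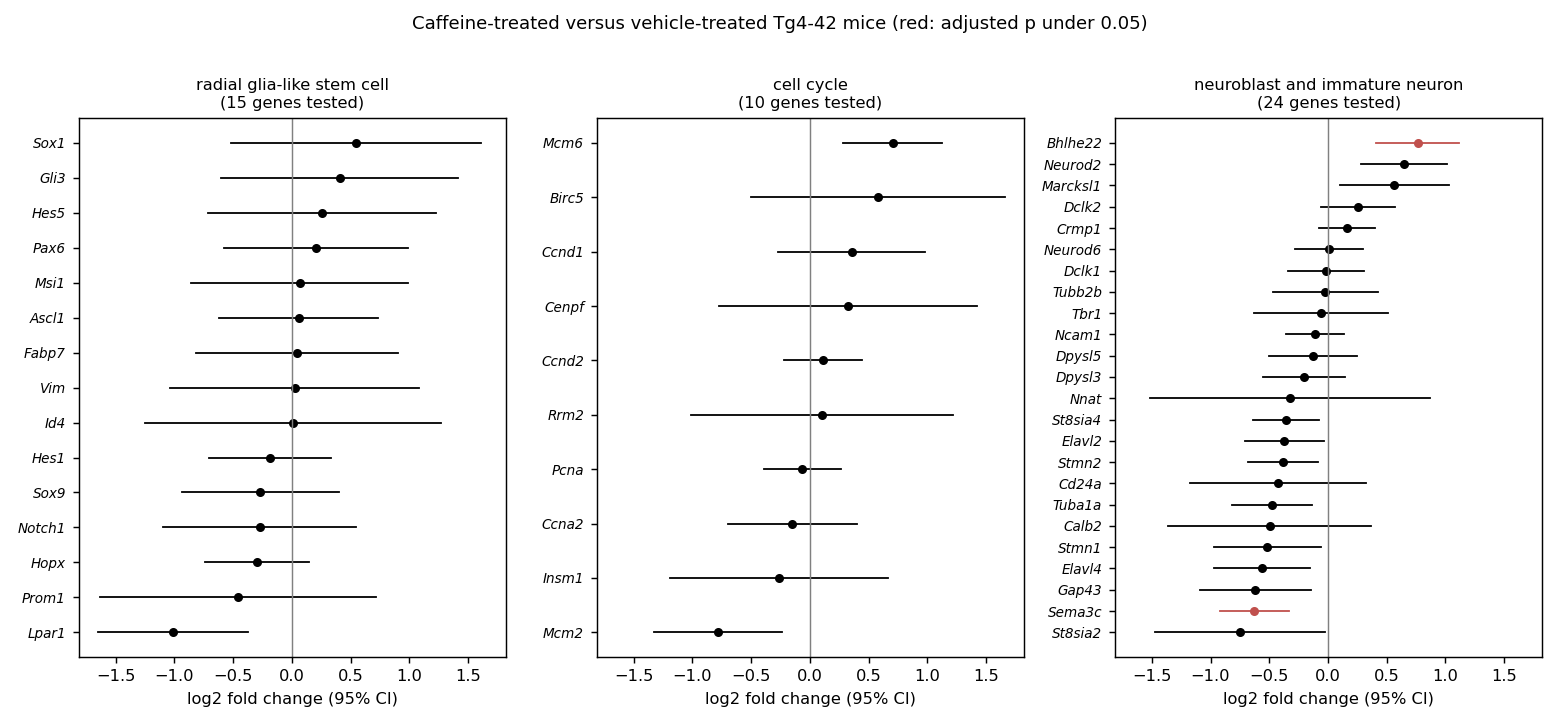
Log2 fold change with 95% CI for caffeine-treated against vehicle-treated Tg4-42 mice, for the tested genes of the 3 lists (15, 10 and 24). Red marks an adjusted p under 0.05, which holds for Bhlhe22 and Sema3c. Of the 24 genes of neuroblasts and immature neurons, 18 lie below 0.

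Markers of other cells moved between the same groups. The summed level of 10 dentate granule cell markers was 1110 to 1385 CPM in the caffeine-treated libraries, 592 to 955 CPM in the vehicle-treated Tg4-42 libraries and 690 to 950 CPM in the WT libraries. All 10 had fold changes above 0 with caffeine against vehicle and 3 rose, namely Stxbp6 (log2 fold change 0.81), Bcl11b (0.75) and Plk5 (1.52). The edgeR adjusted p of these 3 ranged from 0.0385 to 0.0469. The list includes Dsp, Prox1 and Bcl11b, which the study had already named as upregulated by caffeine in these data. Their direction was thus known beforehand, so the count of 10 and the summed level partly follow from the choice of genes. Over all tested genes, 0.881% were called in this comparison, with 8420 fold changes above 0 and 8940 below. The summed level of 10 interneuron markers was 799 to 963 CPM with caffeine, 1024 to 1506 CPM with vehicle and 985 to 1117 CPM in WT mice. With caffeine against vehicle 9 of 10 fold changes were below 0 and 1 of the 10 fell, Slc32a1, the vesicular GABA transporter (log2 fold change -0.93, adjusted p = 0.0462). Leaving out single libraries kept the call in 1 to 3 of 6 fits for each of the 4 genes. With lane as a covariate none of the 4 was called (edgeR adjusted p from 0.0575 to 0.0668).

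The glial lists were lower with caffeine without a call. The summed level of 7 astrocyte markers was 73.6 to 95.5 CPM with caffeine against 104 to 114 CPM with vehicle and 98.2 to 132 CPM in WT mice, with 6 of 7 fold changes below 0 against vehicle, and Gfap (log2 fold change -0.86, edgeR adjusted p = 0.086) had the smallest p. Oligodendrocyte and precursor markers summed to 233 to 340 CPM with caffeine and 337 to 473 CPM with vehicle (Mobp, -0.88), beside 295 to 446 CPM in WT mice. Microglial markers summed to 37.7 to 46.5 CPM, 46.8 to 70.3 CPM (Tmem119, -0.89) and 44.4 to 64.7 CPM in the same order. Of 9 tested oligodendrocyte genes and 6 tested microglial genes, all had fold changes below 0 and 0 were called. Cajal-Retzius markers summed to 54.3 to 63.4 CPM with caffeine and 79 to 100 CPM with vehicle (70.3 to 92.4 CPM in WT mice), nearly all of it Reln (-0.66) and Ndnf. Trp73, the other tested gene of that list, went the other way, at a mean of 1.48 CPM with caffeine and 0.519 CPM with vehicle (log2 fold change 1.46, edgeR adjusted p = 0.209). Lhx5 and Ebf3 had at most 1 read in a library. Mature neuron markers summed to 6108 to 7324 CPM with caffeine and 6776 to 8339 CPM with vehicle (Syt1, -0.44) and 7221 to 7553 CPM in WT mice, with 3 of 6 above 0 and 3 below. Endothelial cell and pericyte markers summed to 4.12 to 7.54 CPM with caffeine and 5.13 to 8.23 CPM with vehicle (Rgs5, -0.46) and 3.75 to 9.41 CPM in WT mice. Of these 5 genes only Rgs5 and Pdgfrb were tested, and Cldn5 had at most 8 reads in a library. Dcx, Sox11 and Tubb3 differed between the same groups as these lists, and the part of cell composition in their values was not tested.

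**Figure D4:**
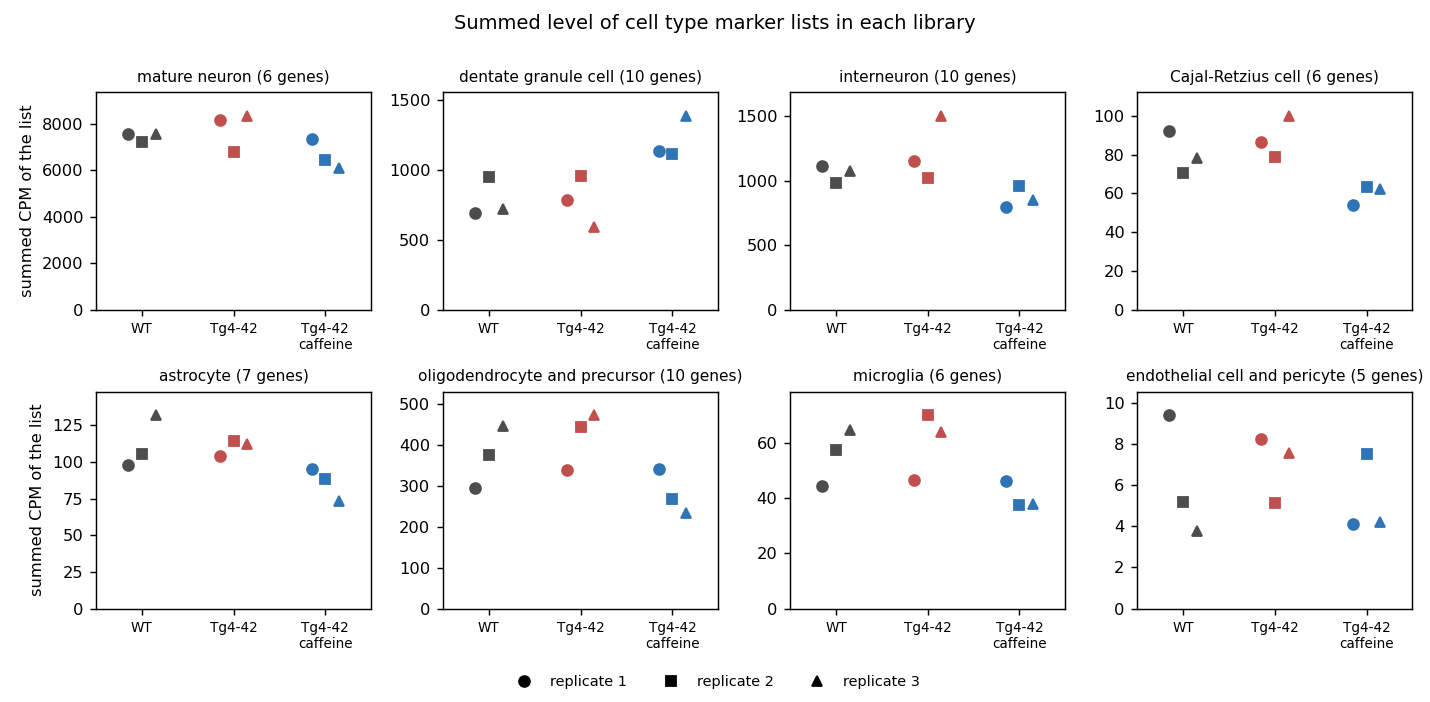
Summed CPM (linear axis from 0, own scale per list) of 8 cell type marker lists in each of the 9 libraries, by group, with symbols for the replicate. The dentate granule cell list is higher in the 3 caffeine-treated libraries (1110 to 1385 CPM) than in the 6 others (592 to 955 CPM), and the interneuron list lies at 799 to 963 CPM against 1024 to 1506 CPM with vehicle. The dentate list includes Dsp, Prox1 and Bcl11b, already named by the study as upregulated by caffeine in these data.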

How the data were processed

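RNA was sequenced from NeuN-sorted nuclei of frozen mouse hippocampus (3 libraries per group, SMART-Seq v4 and Nextera XT, single-end reads of 50 bases). The authors mapped the reads to mm10 with STAR and deposited whole-number exon counts per Ensembl gene from featureCounts, without normalization. The kit does not mark strand. Symbols and exon lengths came from GENCODE release M21, which named 48349 of 48709 genes.

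Counts were tested in R 4.3.3 with edgeR 4.0.16 (quasi-likelihood F test, robust, all 9 libraries in 1 model) after TMM scaling and the edgeR filter (minimum count 10, minimum total 15), which kept 17361 genes. Benjamini-Hochberg adjustment ran over all of them, with calls at 0.05. Standard errors came from the F statistic. CPM used TMM-scaled library sizes, and log2 CPM for likeness a prior count of 2. Untested members were compared on log2(CPM + 0.5) by exact permutation of the libraries, two-sided. Replicates of a group correlated at 0.978 to 0.985 in log2 CPM and differed by more than sampling noise (chi-square per gene 8.76 to 20.6). The statistics were tested on simulated data. Alternatives were DESeq2 1.42.0, RLE scaling, other filters, only the groups compared, lane as a covariate, lane 6 only, the edgeR version 4 method, pseudocounts of 0.1 and 2, plain library totals and leaving out each library. Replicate numbers follow the order of the samples and do not pair them. The text names all members, every list gene called and the gene with the smallest p of each list. Other genes, such as Mcm2 and Trp73, were named after their values were seen. The members, the lists and the tests were chosen with earlier results of these data known.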

Additional observations from a re-analysis of the deposited data

How the results depend on the processing

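Over all tested genes, the number called was 17 in Tg4-42 against WT mice, 153 with caffeine against vehicle and 72 in caffeine-treated Tg4-42 against WT mice. It was 26, 766 and 568 with DESeq2 and 74, 987 and 860 in edgeR with no filter on low counts. With lane as a covariate, 9 genes were called with caffeine against vehicle and 42 against WT, and on lane 6 alone 0 and 17. Leaving out single libraries gave 0 to 341 calls with caffeine against vehicle (0 without caffeine-treated replicate 3 or Tg4-42 replicate 3, 3 without Tg4-42 replicate 1, 341 without caffeine-treated replicate 1) and 16 to 287 against WT. Of the 10 neurogenesis genes, DESeq2 called 1 with caffeine against vehicle, and the fit with no filter called 1 in Tg4-42 against WT mice (Igfbpl1), 2 with caffeine against vehicle (Dcx and Tubb3) and 2 against WT (Igfbpl1 and Tubb3). Leaving out single libraries gave 0 to 1 of them in both caffeine comparisons, Tubb3 without caffeine-treated replicate 1. For the 3 pathway lists, where 2 genes were called with caffeine against vehicle and 1 against WT, DESeq2 called 5 and 5, the fit with no filter 9 and 6, and the fit with lane as a covariate 0 against vehicle. Lane 6 alone called 0 and 0. Leaving out single libraries gave 0 to 3 and 0 to 2. With replicate 2 of both transgenic groups removed, chosen after seeing the data, 89 genes were called with caffeine against vehicle, and 1 and 2 genes of the pathway lists in the comparisons with vehicle and with WT. The cause of these shifts was not tested.

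Dcx, Sox11 and Tubb3 were lower with caffeine than with vehicle under every alternative run, at log2 fold changes from -0.64 to -0.28, from -0.46 to -0.23 and from -0.81 to -0.35 over the planned ones. None of the 7 tested genes was called in the edgeR fit described above, so the sign changes listed next could only fall on uncalled fold changes. In Tg4-42 against WT mice, leaving out single libraries gave -0.16 to 0.31 for Sox2, -0.34 to 0.19 for Mki67, -0.14 to 0.032 for Neurod1, -0.022 to 0.24 for Dcx, -0.17 to 0.43 for Sox4 and -0.055 to 0.20 for Tubb3, and lane 6 alone gave 0.13 for Mki67 and -0.15 for Tubb3. With caffeine against vehicle it gave -0.25 to 0.26 for Sox2 and -0.37 to 0.24 for Sox4, and the edgeR version 4 method gave -0.014 for Sox2. Against WT it gave -0.19 to 0.32 for Sox2, -0.23 to 0.0096 for Sox11 and -0.17 to 0.35 for Sox4, and lane 6 alone gave 0.10 for Sox11 and -0.070 for Sox4. With replicate 2 of both transgenic groups removed, Dcx, Sox11 and Tubb3 stood at -0.73, -0.39 and -0.64 with caffeine against vehicle. Sox2 then stood at -0.099, -0.093 and -0.19 and Sox4 at -0.17, 0.12 and -0.051 in the comparisons of Tg4-42 with WT, caffeine with vehicle and caffeine with WT. The Igfbpl1 difference with caffeine against vehicle was -0.017 with a pseudocount of 2. No paired analysis was possible because the replicate numbers follow the order of the samples. Nes and Eomes had under 3 reads in 7 of 9 libraries each, too few to resolve a difference, and the cause of these low counts was not tested.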
